A study of Mus musculus with 126 samples.

Results

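The Rhox genes, for reproductive homeobox on the X chromosome, were followed through the RNA-seq libraries of a study of DNA methylation and histone acetylation in mouse embryonic stem cells. Every gene of the deposited count table whose symbol is Rhox followed by a number was taken, which gave 31 of 23420 genes. The study compared J1 wild type cells with cells of the J1 strain lacking Dnmt1, Dnmt3a and Dnmt3b (genotype Dnmt1-/-, Dnmt3a-/-, Dnmt3b-/-, the triple knockout or TKO), the enzymes that set and copy DNA methylation. Both genotypes received Trichostatin A (TSA), an inhibitor of histone deacetylases, at a labelled 5 ng/µl for 36 h, or its control, 0.0033% DMSO for 36 h. This gave 4 groups of 2 libraries, called control wild type, treated wild type, control TKO and treated TKO, where control is DMSO and treated is TSA. The series' design text calls the 2 libraries of a group biological replicates. The labels do not say whether the replicates were separate cultures, so each p-value measures the spread between these libraries. The culture medium held serum and leukaemia inhibitory factor, and the labels name 1 TKO genotype without saying how many clones it came from.

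Rhox genes encode homeodomain transcription factors and are known for expression in the testis, epididymis, ovary and placenta. They lie side by side on the X chromosome in the alpha, beta and gamma subclusters, and in the mouse several alpha genes were copied in tandem. In embryonic stem cells and most somatic tissues many of them are known to be held silent with methylated promoters, which has made the cluster a common readout of lost DNA methylation.

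In the deposited coordinates (mm10 in the submitters' processing notes) the 31 genes span X 37213805 to 38129966, a stretch of 916 kb. Counting by gene number, the alpha subcluster (Rhox1 to Rhox4) held 22 genes, the beta subcluster (Rhox5 to Rhox9) held 5 and the gamma subcluster (Rhox10 to Rhox13) held 4. Most alpha genes are repeats, with 8 copies of Rhox2, 6 of Rhox3 and 7 of Rhox4 in the table. Some table entries also merge copies. The gene listed as Rhox3e has 12 exons that fall in 3 RefSeq loci (Rhox3a, Rhox3a2 and Rhox3e) and shares 648 exon bases, 61.8% of the exon length of Rhox3a, with that gene. The gene listed as Rhox4a has 8 exons in 2 RefSeq loci, Rhox4a and Rhox4a2. How reads that match several copies were counted, and whether strand was used, is not stated, so counts of single Rhox2, Rhox3 and Rhox4 copies are uncertain.

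RefSeq promoter sequences (GRCm38.p6, 250 bases before to 50 after the start of transcription) matched 25 of the 31 genes. Their starts coincide with the deposited gene starts for every matched gene except the merged Rhox3e. These promoters were not rich in CpG, the dinucleotide that the deleted enzymes methylate. They held 0 to 12 CpG with a median of 7, and the median over 32851 mouse promoters was also 7, with quartiles of 3 and 20. The 5 promoters printed here belong to genes that the expression results turn on. Rhox1 has 0 CpG, Rhox5 and Rhox13 have 5 each, Rhox2a has 8 and Rhox10 has 9, while the promoters with 10 to 12 CpG are those of Rhox4 copies, which were too low to test. Each runs 5′ to 3′ on the strand of its gene, with every CpG in capitals.
Rhox1, chrX:37222209-37222508, minus strand: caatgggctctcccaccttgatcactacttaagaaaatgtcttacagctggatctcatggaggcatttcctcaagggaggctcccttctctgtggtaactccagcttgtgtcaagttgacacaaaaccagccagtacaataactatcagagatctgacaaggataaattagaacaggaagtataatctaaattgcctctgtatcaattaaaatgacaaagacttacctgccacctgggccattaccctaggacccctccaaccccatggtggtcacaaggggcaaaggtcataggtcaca
Rhox2a, chrX:37244742-37245041, plus strand: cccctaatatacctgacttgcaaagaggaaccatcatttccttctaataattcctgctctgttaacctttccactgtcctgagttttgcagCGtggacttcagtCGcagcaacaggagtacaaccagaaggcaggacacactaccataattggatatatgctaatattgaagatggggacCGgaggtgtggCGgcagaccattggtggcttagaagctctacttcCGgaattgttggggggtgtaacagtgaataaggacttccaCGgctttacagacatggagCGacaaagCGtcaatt
Rhox5, chrX:37754358-37754657, plus strand: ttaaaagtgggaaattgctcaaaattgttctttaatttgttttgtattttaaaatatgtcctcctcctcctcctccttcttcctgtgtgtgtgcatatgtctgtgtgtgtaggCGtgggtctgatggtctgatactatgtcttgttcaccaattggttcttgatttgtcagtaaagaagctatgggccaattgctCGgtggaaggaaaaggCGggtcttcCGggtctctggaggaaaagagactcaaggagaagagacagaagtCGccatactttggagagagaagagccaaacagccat
Rhox10, chrX:38066225-38066524, plus strand: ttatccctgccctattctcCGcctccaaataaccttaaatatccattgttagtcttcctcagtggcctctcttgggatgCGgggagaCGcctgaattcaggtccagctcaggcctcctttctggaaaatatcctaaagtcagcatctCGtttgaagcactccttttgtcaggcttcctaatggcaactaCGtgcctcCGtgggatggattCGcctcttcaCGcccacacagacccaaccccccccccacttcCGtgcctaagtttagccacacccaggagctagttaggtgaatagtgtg
Rhox13, chrX:38120590-38120889, plus strand: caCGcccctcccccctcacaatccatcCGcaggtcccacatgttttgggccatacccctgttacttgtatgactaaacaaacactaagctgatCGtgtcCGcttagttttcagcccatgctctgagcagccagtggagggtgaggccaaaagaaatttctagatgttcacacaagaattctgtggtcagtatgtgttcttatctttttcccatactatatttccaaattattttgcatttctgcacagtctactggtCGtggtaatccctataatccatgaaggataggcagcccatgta

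Both strands of these windows were searched for 1 short motif of each of the 5 transcription factors whose binding the series assayed (GABPA, MAX, NRF1, SP1 and YY1). CCGGAA, the letters at the core of ETS family sites such as those of GABPA, occurred in 8 of the 25 Rhox promoters and in 14.9% of all promoters. The 8 were the 7 matched Rhox2 copies and Rhox5. The 7 copies share their sequence, so they are not 7 independent cases. In the Rhox2 copies the match began 10 to 48 bases upstream of the start and was present on both strands, since the letters around it form a palindrome. In Rhox5 it lay on the opposite strand, 33 to 28 bases upstream. The motif, in capitals, with 12 bases on each side is shown for the Rhox2 variants and Rhox5 because it holds a CpG near the start of transcription.
Rhox2a, Rhox2b, Rhox2c, Rhox2d and Rhox2e (motif of Rhox2a at chrX:37244966-37244971, plus strand): gaagctctacttCCGGAAttgttggggggt
Rhox2g (motif at chrX:37643475-37643480, minus strand): gaagctctacttCCGGAAttgttgagaggt
Rhox2h (motif at chrX:37673298-37673303, minus strand): gaagctctacttCCGGAAttgttggggact
Rhox5 (motif at chrX:37754575-37754580, read on the strand opposite to the gene): tcctccagagacCCGGAAgacccgcctttt

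The other motifs were less shared. GGGCGG, a GC box bound by SP1, was found in all 6 matched Rhox4 copies and in Rhox12, against 35.7% of all promoters. CACGTG, an E-box bound by MAX, was found in 4 Rhox4 copies (Rhox4b, Rhox4e, Rhox4f and Rhox4g), against 7.15% of all promoters. TGCGCA, part of the NRF1 site, and AAGATGGC, a YY1 site, were in none of the 25 promoters, against 7.76% and 2.75% of all promoters. The search covers the letters in these windows and says nothing of binding. Promoters of copies with the same number were 74.6 to 99.7% identical among Rhox2 copies (median 87.5% over 21 pairs), 65.7 to 95.03% among Rhox4 copies and 38.1 to 100.0% among Rhox3 copies. The alignment covered each whole window and counted gaps at its ends as differences. Copies whose annotated starts are offset therefore score below the identity of their shared sequence, as Rhox3f and Rhox3g-ps do at 38.8%. Rhox1 and Rhox2a, of different numbers, scored 47.2%. Rhox4 promoters held 10 to 12 CpG, Rhox2 promoters 5 to 9 and Rhox3 promoters 2 to 4.

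The 8 libraries held 13280631 to 15542527 counts each. The targeted genes were lower in every TKO library than in every wild type library. The lowest wild type and the highest TKO values were 360 and 135 CPM for Dnmt1, 152 and 39.1 for Dnmt3a, and 343 and 76.1 for Dnmt3b. CPM here are counts relative to the library total after scaling by TMM factors, which correct for unequal RNA composition. Of the 31 Rhox genes, 13 passed the filter on low counts and were tested among 15822 genes. These 13 are also the genes with at least 20 counts in at least 1 library. They are 8 of 22 alpha genes, 3 of 5 beta genes and 2 of 4 gamma genes. A gene can pass that filter through the group where it is high, so counts of members called are a description. Of the other 18 genes, 15 had between 1 and 19 counts in their highest library and 3 (Rhox3a, Rhox3h and Rhox8) had no count in any.

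Rhox transcripts were most abundant in TKO cells given TSA, and in control wild type cells most of their counts came from Rhox5. Counts of the 31 genes added up to 43.4 and 73.1 CPM in control wild type, 63.8 and 101 in treated wild type, 96.8 and 136 in control TKO, and 261 and 323 in treated TKO. The treated wild type libraries overlapped both control groups, and the treated TKO libraries lay above all others. Replicate 2 was above replicate 1 in every group. Among libraries of the same replicate number, treated wild type lay between control wild type and control TKO. Rhox5 alone made up 69.7 and 70.5% of the Rhox counts in control wild type, 46.5 and 49.4% in treated wild type, and 62.2 to 63.1% in the 4 TKO libraries.

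**Figure D1:**
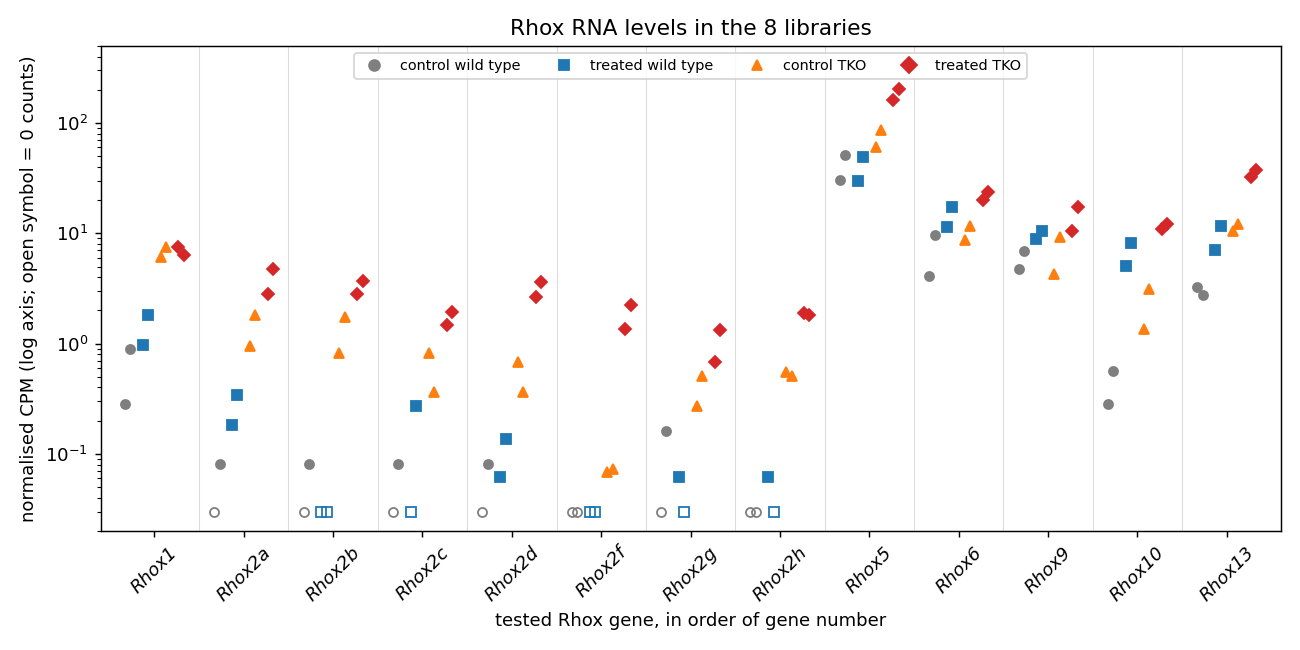
Normalised CPM on a log axis of the 13 tested Rhox genes in each of the 8 libraries, 1 symbol per library, with open symbols at the bottom for libraries with 0 counts. In 11 of the 13 genes both treated TKO libraries lay above the other 6, the exceptions being Rhox1 and Rhox9. This order was not compared with that over all tested genes. A gene can also pass the filter on low counts through treated TKO, so the order is a description.

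Every called Rhox difference was an increase. Genes were called at an adjusted p below 0.05 by edgeR's quasi-likelihood test over all tested genes. Without DNA methyltransferases, in DMSO, 7 of the 13 tested Rhox genes rose (Rhox1, Rhox2a, Rhox2b, Rhox2d, Rhox2h, Rhox10 and Rhox13), where 9.63% of all tested genes were called higher. With TSA in both genotypes, 10 of 13 were higher in TKO (all tested genes but Rhox6, Rhox9 and Rhox10), where 10.0% of all tested genes were. TSA in wild type cells raised 3 of 13 (Rhox6, Rhox10 and Rhox13), against 27.0% of all tested genes, a share close to the background. Of these 13, Rhox2b, Rhox2d, Rhox2f, Rhox2g and Rhox2h had at most 3 counts in each wild type group, too few to detect a change. Fitted on the wild type groups alone, 6 Rhox genes were tested and 4 were called, all higher. In that fit 3853 of 15148 tested genes were called higher. TSA in TKO cells raised 11 of 13 (all tested genes but Rhox1 and Rhox2g), against 30.8%. TKO cells with TSA were above wild type cells with DMSO for all 13 tested genes, against 31.7%. These comparisons share libraries and are not independent of each other. Fewer Rhox genes were called for the TKO in DMSO without control wild type replicate 1, and for TSA in TKO without control TKO replicate 1. DESeq2 kept 7 of the 11 calls of TSA in TKO. Rhox9 lost its call in the last comparison without control wild type replicate 1 (adjusted p 0.0657) or treated TKO replicate 2 (adjusted p 0.0796). Summed markers of primitive endoderm were also higher in the TKO groups, and those of trophoblast and of the 2-cell-like state in the treated groups, as the marker lists show.

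The median log2 fold change over all tested genes was -0.01 for the TKO in DMSO, 0.00 for the TKO in TSA, 0.01 for TSA in wild type and 0.04 for TSA in TKO. No median is given over the 13 Rhox genes, since several fitted values rest on at most 3 counts. Scaling by total counts alone moved the median of all genes by TSA to 0.22 in wild type and 0.19 in TKO, so TSA changes are read against TMM scaling.

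**Figure D2:**
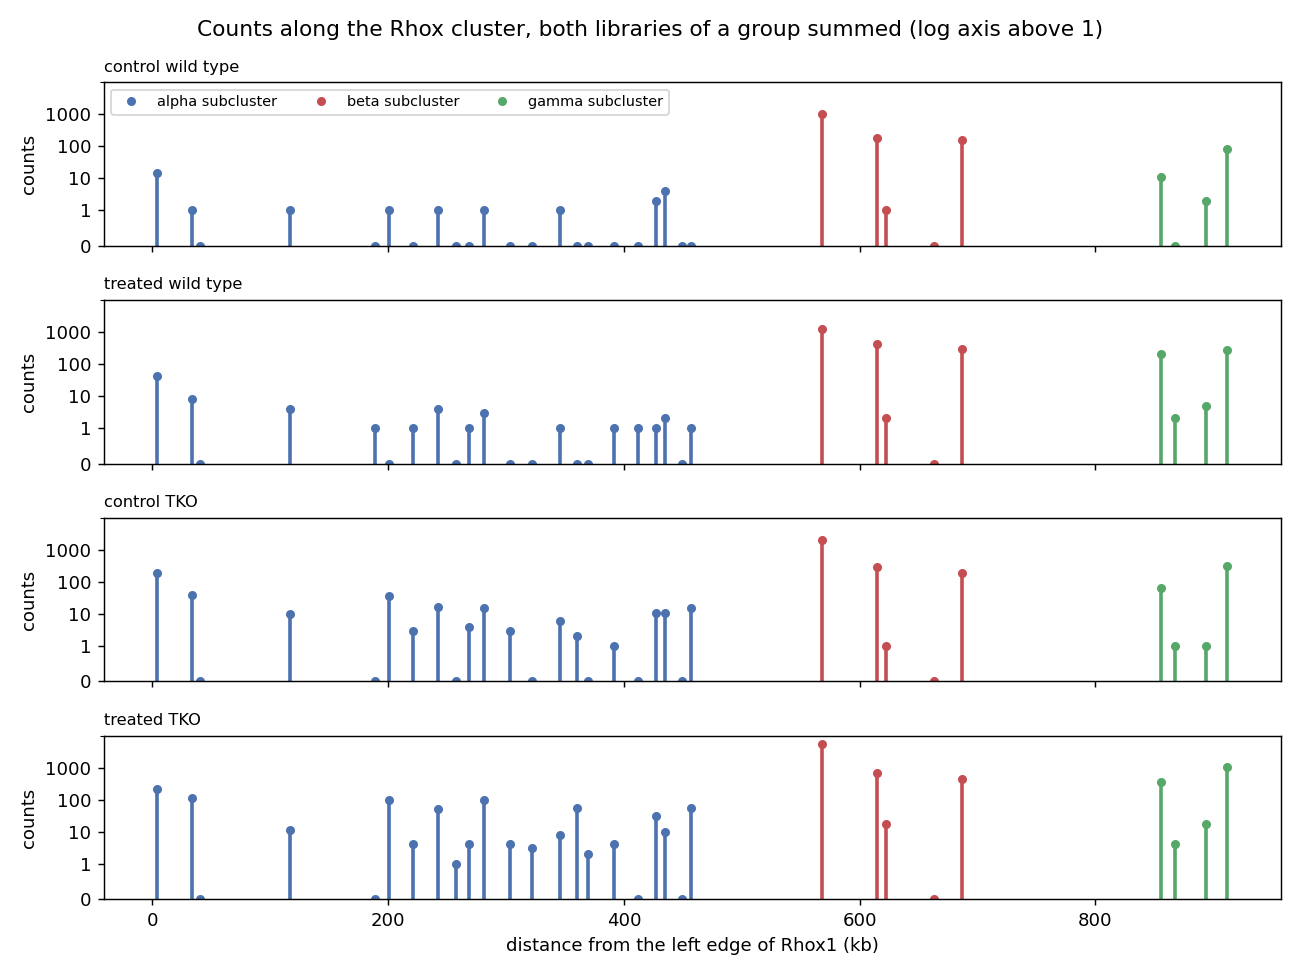
Counts of each of the 31 Rhox genes, summed over the 2 libraries of a group, against distance from the left edge of Rhox1 in kb, with 1 panel per group and a vertical axis that is logarithmic above 1. In wild type cells the alpha genes right of Rhox1 stay at or below 8 counts, while in treated TKO Rhox2a reaches 117.

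Rhox1, at the edge of the alpha subcluster next to the flanking genes, was the alpha gene with the highest level per length in every group. It had 4 and 11 counts in control wild type, 16 and 27 in treated wild type, 89 and 104 in control TKO, and 111 and 102 in treated TKO. In CPM this was 0.589 ± 0.43 (SD, n = 2), 1.41 ± 0.61, 6.83 ± 1.05 and 6.96 ± 0.78. All 4 TKO libraries lay above all 4 wild type libraries, and the TKO libraries with and without TSA overlapped. The log2 fold change of the TKO was 3.56 ± 0.43 (SE, adjusted p 0.000299, edgeR) in DMSO and 2.31 ± 0.36 (adjusted p 0.00158) in TSA. TSA gave 1.27 ± 0.51 in wild type (adjusted p 0.0570), which did not pass the test although the libraries did not overlap, and 0.03 ± 0.30 in TKO (adjusted p 0.944). The wild type value was called when either the lower treated wild type library, replicate 1, was left out (adjusted p 0.0272) or the higher control wild type library, replicate 2, was (adjusted p 0.0193). It was 0.63 without control wild type replicate 1 (adjusted p 0.350) and 0.76 without treated wild type replicate 2 (adjusted p 0.338), so its size rests on single libraries. Its promoter, printed above, was the one with no CpG among the 25.

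The Rhox2 copies were close to undetected in wild type cells and counted in TKO cells. Summed over the 8 copies there were 0 and 6 counts in control wild type, 6 and 11 in treated wild type, 61 and 74 in control TKO, and 204 and 311 in treated TKO. The sums were 0.243 ± 0.34 CPM (SD, n = 2) in control wild type, 0.557 ± 0.27 in treated wild type, 4.78 ± 0.86 in control TKO and 16.7 ± 4.05 in treated TKO. The 2 wild type groups overlapped, and each TKO group lay apart from every other group. Adding copies avoids the question of which copy a read came from only where reads matching several copies were counted at all.

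Single Rhox2 copies differed in how many counts they took. Rhox2a, the leftmost copy, had 0 and 1 counts in control wild type, 3 and 5 in treated wild type, 14 and 25 in control TKO, and 42 and 75 in treated TKO. Its groups followed each other without overlap. Rhox2d had 0 and 1, 1 and 2, 10 and 5, and 39 and 58 counts in the same order of groups. Rhox2f had no count in the 4 wild type libraries, 1 in each control TKO library, and 20 and 36 in treated TKO. Rhox2f was thus at 2 counts in all in control TKO, where Rhox2a had 39. Between control TKO and treated TKO the ratio of CPM over the group totals was 2.77 for Rhox2a and 5.97 for Rhox2d. For Rhox2f it was 25.9 with an exact 95% counting interval of 6.83 to 219, which rests on 2 counts in the lower group and covers counting error only, since PCR reads are not independent molecules.

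The other Rhox2 copies also had their highest counts in treated TKO. Rhox2b had 0 and 1 counts in control wild type, 0 and 0 in treated wild type, 12 and 24 in control TKO, and 42 and 59 in treated TKO, so that with TSA it was at least 34.1-fold higher in TKO (against a floor of 3 counts over the group). Rhox2h had 0 and 0, 1 and 0, 8 and 7, and 28 and 29 counts, at least 4.65-fold higher in TKO in DMSO. Rhox2c had 0 and 1, 0 and 4, 12 and 5, and 22 and 31 counts. Rhox2g, the lowest tested copy, had 0 and 2, 1 and 0, 4 and 7, and 10 and 21 counts. Each of these 4 copies was higher in both treated TKO libraries than in both control TKO libraries. Rhox2e was barely counted, with no count in 6 libraries and 1 and 2 in treated TKO, against 165 counts over all libraries for Rhox2a. The promoters of Rhox2e and Rhox2a are 99.7% identical, and whether the low count reflects transcription or the handling of shared reads was not tested.

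Calls on single Rhox2 copies depended on few counts. The TKO in DMSO called Rhox2a (adjusted p 0.00361, edgeR), Rhox2b (0.00513), Rhox2h (0.00886) and Rhox2d (0.0277) but not Rhox2c (0.0504), Rhox2g (0.170) or Rhox2f (0.286). The call for Rhox2d was lost without control wild type replicate 1 (adjusted p 0.175) or control TKO replicate 1 (0.156), and that for Rhox2h without control wild type replicate 1 (0.0575). Rhox2c was called without either treated wild type library (adjusted p 0.0287 and 0.0291). With TSA, all 7 tested copies were called higher in TKO, where 10.0% of all tested genes were. A copy can pass the filter on low counts through treated TKO, so this count is a description. The adjusted p ran from 0.000381 for Rhox2d to 0.00842 for Rhox2g (edgeR). Rhox2c lost that call without treated wild type replicate 1 (0.0641) and Rhox2g without treated TKO replicate 2 (0.0659).

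TSA raised 6 of the 7 tested Rhox2 copies in TKO cells, where 30.8% of all tested genes were called higher. The copies share sequence and their single counts are uncertain, so they are not 7 independent cases. A copy can also pass the filter on low counts through treated TKO, so this count is a description. The adjusted p (edgeR) was 0.000473 for Rhox2f, 0.000564 for Rhox2d, 0.00524 for Rhox2h, 0.0110 for Rhox2a, 0.0183 for Rhox2b and 0.0419 for Rhox2c, and 0.0847 for Rhox2g. Leaving out control TKO replicate 1 or treated TKO replicate 2 ended the calls of Rhox2a (0.108 and 0.120), Rhox2b (0.153 and 0.109) and Rhox2c (0.0551 and 0.177). Rhox2c also lost it without control TKO replicate 2 (0.239) or treated TKO replicate 1 (0.0627). DESeq2 did not call Rhox2a (0.0554), Rhox2b (0.104), Rhox2c (0.196) or Rhox2h (0.101). In wild type cells TSA called 0 of the 7 copies by edgeR and by DESeq2, and 0 were at an unadjusted p below 0.05 in edgeR. Of all tested genes, edgeR called 27.0% higher and 25.9% lower there. Of the 7, 5 had at most 3 counts in each wild type group, so that a change in them was not detectable at this depth.

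Rhox3 and Rhox4 stayed low in all groups. The 6 Rhox3 genes had at most 1 count in any library. The 7 Rhox4 genes had at most 6, and none was tested. The Rhox4 counts summed to 4 and 2 in control wild type, 2 and 8 in treated wild type, 19 and 19 in control TKO, and 23 and 22 in treated TKO. The sums in TKO were thus above those in wild type, with mean CPM of 0.224, 0.333, 1.34 and 1.47, and TKO cells with and without TSA differed by less than they did from wild type. Rhox4b, also known as Ehox, was described in differentiating embryonic stem cells, and it had 0 to 2 counts in the 8 libraries.

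Rhox5, first described as Pem and the founding member, is best known as an androgen-responsive gene of Sertoli cells. It was the most abundant Rhox gene in every group. Its levels were 30.3 and 51.6 CPM in control wild type, 29.7 and 49.7 in treated wild type, 60.2 and 85.7 in control TKO, and 163 and 204 in treated TKO. The wild type groups overlapped almost fully, control TKO lay just above them, and treated TKO lay far above. TSA changed it by a log2 fold change of 1.33 ± 0.26 (SE, adjusted p 0.00134, edgeR) in TKO cells, whereas the value in wild type was -0.04 ± 0.28 (adjusted p 0.910) and turned positive under 2 other scalings. The TKO effect was 2.21 ± 0.27 (adjusted p 0.000459, edgeR) with TSA and 0.84 ± 0.27 (adjusted p 0.0509) in DMSO. The DMSO value missed the threshold narrowly and passed it without control wild type replicate 2 (0.0132), without either treated wild type library (0.0213 and 0.0204) or without either treated TKO library (0.0472 and 0.0457). Its promoter holds CCGGAA, as those of the 7 matched Rhox2 copies do. Rhox5 had 424 to 731 counts in the wild type libraries, where the 8 Rhox2 copies together had 0 to 11. Whether the motif bears on these levels was not tested.

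Rhox6 and Rhox9, first described as the placenta genes Psx1 and Psx2, were not called for the genotype within either treatment. For TSA, Rhox6 was called in both genotypes and Rhox9 in TKO. Rhox6 was at 4.14 and 9.65 CPM in control wild type, 11.4 and 17.3 in treated wild type, 8.76 and 11.6 in control TKO, and 20.2 and 23.7 in treated TKO. The control groups overlapped each other, and each treated group lay above the control group of its genotype. TSA gave log2 fold changes of 1.07 ± 0.33 (SE, adjusted p 0.0178, edgeR) in wild type and 1.11 ± 0.31 (adjusted p 0.00920) in TKO. The wild type call was lost without control wild type replicate 1 (0.57, adjusted p 0.124) or treated wild type replicate 2 (0.74, adjusted p 0.125), and the value rose to 1.78 without control wild type replicate 2. The TKO call was lost without control TKO replicate 1 (adjusted p 0.0832). The TKO effect on Rhox6 was 0.57 ± 0.34 in DMSO (adjusted p 0.262) and 0.62 ± 0.30 in TSA (adjusted p 0.176), and the DMSO value was called without control wild type replicate 2 (1.29, adjusted p 0.0174).

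Rhox9 was at 4.78 and 6.89 CPM in control wild type, 8.80 and 10.5 in treated wild type, 4.31 and 9.24 in control TKO, and 10.5 and 17.3 in treated TKO. The control groups overlapped, and within each genotype the treated libraries were higher. In TKO cells TSA gave a log2 fold change of 1.05 ± 0.34 (SE, adjusted p 0.0194, edgeR), which fell to 0.59 (adjusted p 0.171) without control TKO replicate 1 and 0.63 (adjusted p 0.184) without treated TKO replicate 2, and was 1.68 without control TKO replicate 2. In wild type cells it was 0.73 ± 0.35 (adjusted p 0.0981). The TKO effect was 0.22 ± 0.36 in DMSO (adjusted p 0.727) and 0.53 ± 0.32 in TSA (adjusted p 0.282).

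The other beta genes were barely counted. Rhox7 had 0 or 1 counts in the 6 libraries outside treated TKO and 11 and 6 in treated TKO. Rhox8, a gene of Sertoli and granulosa cells, had none in any library. No promoter sequence was matched for Rhox6, Rhox7, Rhox8 or Rhox9.

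Rhox10, a gene of spermatogonia in the gamma subcluster, gave the largest response to TSA in wild type cells among the 6 Rhox genes with over 3 counts in every group. Its levels were 0.285 and 0.567 CPM in control wild type (4 and 7 counts), 5.07 and 8.09 in treated wild type, 1.37 and 3.13 in control TKO, and 11.03 and 12.1 in treated TKO. No 2 groups overlapped, and treated wild type lay above control TKO. TSA gave log2 fold changes of 3.94 ± 0.49 (SE, adjusted p 9.66e-05, edgeR) in wild type and 2.37 ± 0.35 (adjusted p 0.000195) in TKO. The TKO effect was 2.39 ± 0.56 (adjusted p 0.0116, edgeR) in DMSO, and lost its call without control wild type replicate 1 (1.94, adjusted p 0.105) or control TKO replicate 2 (1.69, adjusted p 0.107). In TSA it was 0.82 ± 0.31 (adjusted p 0.0905).

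Rhox13, a gene expressed in germ cells of the testis at the far end of the cluster, rose with either change and most with both. It was at 3.28 and 2.76 CPM in control wild type, 7.02 and 11.6 in treated wild type, 10.5 and 12.1 in control TKO, and 32.5 and 37.5 in treated TKO. Treated wild type and control TKO overlapped, and the other groups stood apart. The log2 fold change of TSA was 1.61 ± 0.26 (SE, adjusted p 0.000514, edgeR) in wild type and 1.63 ± 0.21 (adjusted p 7.99e-05) in TKO. That of the TKO was 1.90 ± 0.26 (adjusted p 0.000642, edgeR) in DMSO and 1.91 ± 0.21 (adjusted p 0.000254) in TSA. Together they gave 3.53 ± 0.25 (adjusted p 1.67e-06, edgeR) for treated TKO over control wild type, close to the sum of the separate changes on the log2 scale. Between Rhox10 and Rhox13, Rhox11 had 0 to 3 counts and Rhox12 had 0 to 3 outside treated TKO, where it had 7 and 11.

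**Figure D3:**
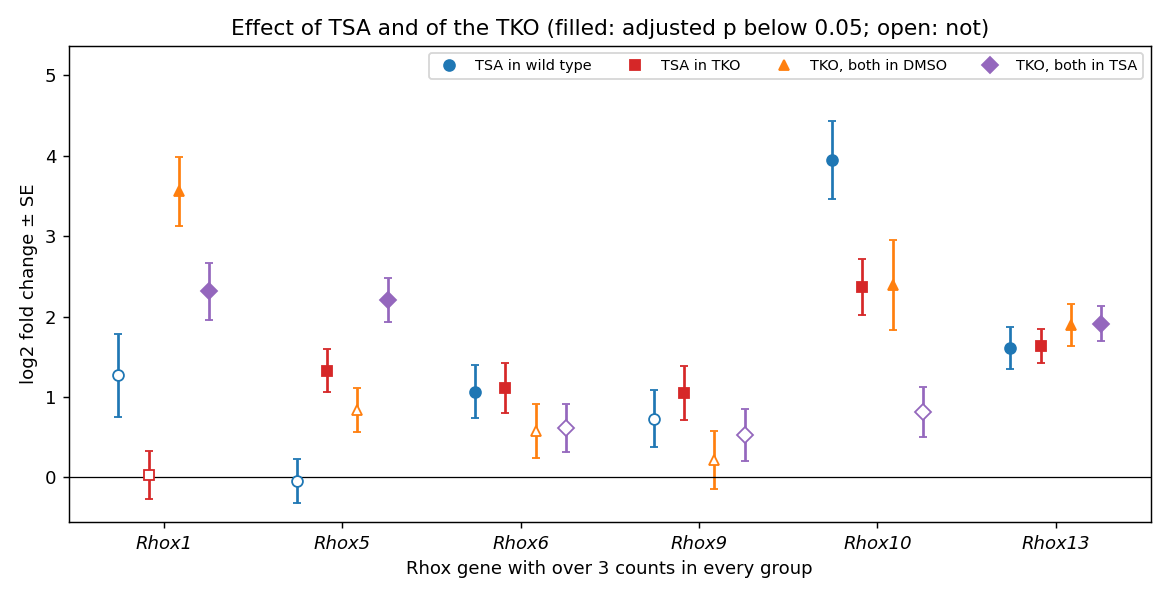
Log2 fold changes with standard errors of the 6 Rhox genes with over 3 counts in every group, for TSA within each genotype and for TKO against wild type within each treatment, with filled symbols at an adjusted p below 0.05. Rhox1 shows its largest value for the TKO (3.56 in DMSO) and Rhox10 for TSA in wild type (3.94), while the 4 values of Rhox13 lie between 1.61 and 1.91.

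Whether TSA acted differently in the 2 genotypes was tested with the interaction term, the log2 change by TSA in TKO minus that in wild type. No tested Rhox gene was called (0 of 13 by edgeR, where 1.35% of all tested genes were called in either direction). DESeq2 also called 0, of the 7 Rhox genes to which it gave an adjusted p. In edgeR, 2 of the 13 were at an unadjusted p below 0.05. These 2 were Rhox5, with a larger change in TKO (1.37 ± 0.38, SE, adjusted p 0.115, edgeR), and Rhox10, with a smaller one (-1.58 ± 0.66, adjusted p 0.299). Rhox5 was called without treated wild type replicate 2 (1.79, adjusted p 0.0454) and without the filter on low counts (1.34, adjusted p 0.0160). The value for Rhox13 was 0.02 ± 0.38 (adjusted p 0.992) and that for Rhox1 was -1.24 ± 0.60 (adjusted p 0.376). For the Rhox2 copies with at most 3 counts in each wild type group the term could not be read.

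Summed by subcluster, the levels had different ratios between the groups. The alpha sum was 0.571 and 1.54 CPM in control wild type, 1.53 and 3.19 in treated wild type, 11.6 and 14.3 in control TKO, and 23.0 and 27.4 in treated TKO. The means in TKO were thus 12.3 times those in wild type in DMSO and 10.7 times in TSA, while the means with TSA were 2.24 times those with DMSO in wild type and 1.95 times in TKO. For the gamma sum the TKO ratios were 3.87 and 2.93, and the TSA ratios were 4.58 in wild type and 3.47 in TKO. For the beta sum, most of which is Rhox5, the TKO ratios were 1.68 in DMSO and 3.44 in TSA, and the TSA ratios were 1.19 in wild type and 2.44 in TKO. For the beta genes without Rhox5 they were 1.33 and 1.51 for the TKO, and 1.89 and 2.14 for TSA. The alpha sum overlapped between the wild type groups at 1.54 and 1.53 CPM, while the gamma sum did not overlap between TSA and DMSO in either genotype. These sums mix unlike genes. For TSA in TKO the ratio of group totals was 1.02 for Rhox1, and the ratio of means was 3.49 for the summed Rhox2 copies. For TSA in wild type the ratio of group totals was 15.6 for Rhox10 and 3.03 for Rhox13. No test was made on these sums.

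**Figure D4:**
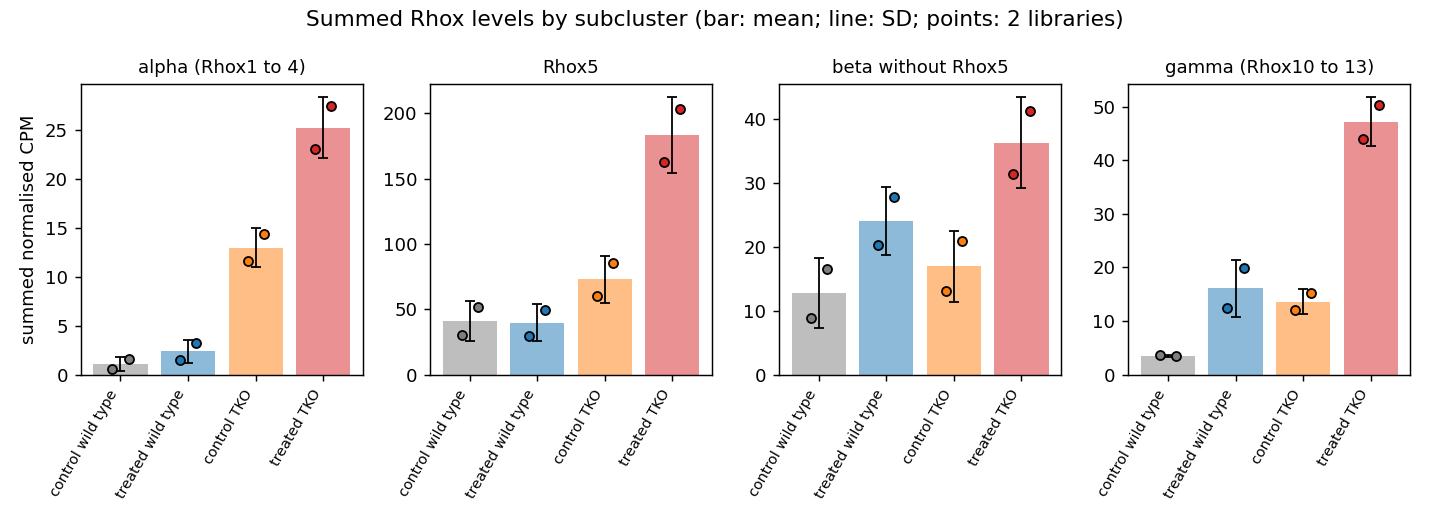
Summed normalised CPM of the alpha genes, of Rhox5, of the other beta genes and of the gamma genes in the 4 groups, with bars for the mean, lines for the SD and points for the 2 libraries, on a separate linear axis in each panel. The alpha mean goes from 1.06 in control wild type to 12.9 in control TKO, and the gamma mean from 3.52 to 16.1 with TSA in wild type.

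Levels between genes were compared per kilobase of exon. In control wild type, Rhox5 was at 51.1 CPM per kb, followed by Rhox6 at 7.97, Rhox9 at 6.62, Rhox13 at 2.41, Rhox1 at 0.667 and Rhox10 at 0.561. The libraries of Rhox6 and Rhox9 overlapped, as did those of Rhox1 and Rhox10. In treated TKO the order was Rhox5 at 229 CPM per kb, Rhox13 at 27.9, Rhox6 at 25.3, Rhox9 at 15.8, Rhox10 at 15.2, Rhox1 at 7.89 and Rhox2a at 4.82. There Rhox13 overlapped Rhox6 and Rhox9 overlapped Rhox10, so that Rhox13 and Rhox10 lay beside Rhox6 and Rhox9.

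Most genes around the cluster, like most tested genes, were not called with the genotype. Of 22 genes taken as the 10 nearest on each side and the 2 inside, 14 were tested. The TKO in DMSO called 1 of them higher and 0 lower (edgeR), where 9.63% of all tested genes were called higher and 10.7% lower. TSA in wild type called 3 higher and 3 lower, where 27.0% of all tested genes were called higher and 25.9% lower. The TKO in TSA called 2 of the 14 higher and 0 lower, where 10.0% of all tested genes were called higher. The flanking gene called with the genotype in DMSO, Gm9, ends 2.76 kb from Rhox1. It was at 0.143 and 0.567 CPM in control wild type (2 and 7 counts), 1.47 and 2.65 in treated wild type, 1.71 and 3.20 in control TKO, and 12.2 and 18.2 in treated TKO. Its log2 fold change was 2.80 ± 0.62 (SE, adjusted p 0.00877, edgeR) for the TKO in DMSO and 2.54 ± 0.63 (adjusted p 0.00599) for TSA in wild type, so it rose with either change. The first call was lost without control wild type replicate 1 (2.07, adjusted p 0.0871) or control TKO replicate 2 (2.29, adjusted p 0.0739), and the second without control wild type replicate 1 (1.83, adjusted p 0.0576). The next gene outward, Rnf113a1, lies 21.3 kb from the cluster and had 125 and 90 counts in control wild type and 103 and 85 in control TKO. On the other side Zbtb33, 59.8 kb away, had 644 and 657 against 730 and 587. Over the 619 other tested genes of the X chromosome, 13.1% were called higher in TKO in DMSO and 33.8% with TSA in wild type. For the TKO in TSA 21.6% of them were called higher, where 10.0% of all tested genes were. For TSA in TKO it was 42.0%, where 30.8% of all tested genes were called higher.

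Factors that could act on the cluster were read from lists chosen by known role. Of 22 tested silencing factors, 3 were higher and 4 lower in TKO in DMSO, where 9.63% of all tested genes were called higher and 10.7% lower. The list includes the deleted Dnmt1, Dnmt3a and Dnmt3b, lower in every TKO library, so the lower count partly reflects the knockout itself. With TSA in wild type 2 of the 22 were higher and 15 lower, where 27.0% of all tested genes were called higher and 25.9% lower. Dnmt3b, a de novo methyltransferase, itself changed by -0.72 ± 0.11 (log2, SE, adjusted p 0.000292, edgeR) with TSA in wild type. Of 14 activating factors, 2 were higher in TKO in DMSO and 1 was lower. The endoderm factor Gata4 changed by 0.85 ± 0.23 (adjusted p 0.0229, edgeR), the ETS factor Etv5 by 0.42 ± 0.11 (adjusted p 0.0181) and the ETS factor Ets1 by -1.98 ± 0.17 (adjusted p 3.45e-05). The call of Gata4 was lost without control wild type replicate 1 (0.164) or either control TKO library (0.0679 and 0.125) and under DESeq2 (0.0693), and that of Etv5 without control wild type replicate 1 (0.0971) or either control TKO library (0.0714 and 0.117).

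Markers of other cell types differed between the groups, and their part in the Rhox changes was not tested. Of all tested genes, TSA called 27.0% higher and 25.9% lower in wild type, and 30.8% and 27.9% in TKO. The TKO called 9.63% of them higher and 10.7% lower in DMSO, and 10.0% higher in TSA. The marker counts below are read beside these shares. The libraries carried pluripotency markers throughout, with a summed level of 8 genes at 3293 to 3710 CPM in control wild type, 1895 to 2124 in treated wild type, 4143 to 4501 in control TKO and 1851 to 2174 in treated TKO, and TSA lowered 6 of the 8 in either genotype, where it lowered 25.9% of all tested genes in wild type and 27.9% in TKO. Primitive endoderm markers (10 genes) summed to 107 to 116 CPM in control wild type and 93.0 to 107 in treated wild type, but to 370 to 392 in control TKO and 306 to 331 in treated TKO, and 6 of the 9 tested were called higher in TKO in DMSO. Trophoblast markers (10 genes) were at 66.7 to 70.0 and 49.7 to 71.8 CPM in control wild type and control TKO and at 210 to 227 and 272 to 273 in the treated groups, where TSA raised 6 of the 8 tested in either genotype, with the spongiotrophoblast gene Tpbpa at 0 in all libraries. The TKO in DMSO called 1 of these 8 higher and 3 lower. Markers of the 2-cell-like state (8 genes) went from 11.1 to 11.3 CPM to 122 to 211 with TSA in wild type and from 7.05 to 8.73 to 270 to 354 in TKO, with Gm6763 at 0 throughout. Germ cell markers (10 genes) were at 137 to 177, 240 to 279, 301 to 335 and 475 to 494 CPM in the same order of groups as the pluripotency markers. Their members differed in direction, with 5 of 9 tested higher and 1 lower with TSA in wild type, 4 higher and 2 lower with TSA in TKO, and 4 higher and 3 lower in TKO in TSA. Markers of Sertoli cells (8 genes) were at 79.4 to 84.0, 154 to 184, 54.1 to 68.2 and 167 to 272 CPM. Of the 5 tested, Clu and Cldn11 were higher with TSA in both genotypes and Dmrt1 was lower in wild type, and Clu alone went from 26.0 to 44.8 CPM to 129 to 156 with TSA in wild type. Mesenchymal markers (8 genes) were at 499 to 506, 313 to 347, 334 to 416 and 198 to 243 CPM, of which Fn1 alone took 395 to 417 in control wild type. TSA called 3 of 7 tested higher and 3 lower in wild type, and 5 higher and 1 lower, Fn1, in TKO, while 0 were higher and 4 lower in TKO in DMSO. In bulk RNA, more cells expressing a Rhox gene and more of its RNA per cell cannot be told apart.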

How the data were processed

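The authors deposited 1 table of raw read counts per gene with exon coordinates and the summed exon length in bases, a length as deposited. Per the submitters' processing notes, which give no role or order, mm10, TopHat2 2.0.13, featureCounts 1.4.5-p1 and edgeR 3.22.3 were used. Per the labels' protocols, ribosomal RNA was depleted and the library kit was directional. The 8 RNA-seq libraries were grouped by their labels, and the other 118 samples were not analysed here. Counts were tested here with edgeR 4.0.16 (R 4.3.3), with the filterByExpr filter, TMM factors and 1 quasi-likelihood fit of 4 group means to all 8 libraries. Tests were two-sided, with Benjamini-Hochberg adjustment over 15822 genes and a threshold of 0.05. The code was tested on simulated data. Alternatives were other scalings, DESeq2 1.42.0, other filters, fewer groups, a replicate block and leaving out each library. Every Rhox gene with at least 20 counts in a library was described library by library, and others by range. Rhox7, Rhox11 and Rhox12 were named after their values were seen. The members and lists were chosen with earlier results of these data known. Levels per length are CPM per kb of exon. Promoters are from RefSeq (GRCm38.p6) and were compared by global alignment with Biopython 1.88. Totals of 13280631 to 15542527 counts limit precision for genes with few counts. Chi-square per degree of freedom between replicates was 5.28 to 12.2, so no 2 libraries agreed within sampling noise.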

Additional observations from a re-analysis of the deposited data

How the results depend on the processing

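Of 44 called member results, none reversed under any alternative, and 13 lost the call under at least 1, in 27 of 655 values. Of 23 uncalled results, 9 gained a call and 8 changed sign under at least 1 alternative. A further 11, with at most 3 counts in both groups compared, were not followed. TSA in wild type called 5 Rhox genes with total counts and 5 with the replicate block, against 3. DESeq2 called 7 for TSA in TKO. The number of Rhox genes tested differed between alternatives, so calls can include genes not tested in the main fit. Leaving out a library gave 2 to 4 calls for TSA in wild type, 7 to 13 for TSA in TKO, 4 to 9 for the TKO in DMSO, 9 to 11 in TSA and 0 to 1 for the interaction. The interaction called 1 gene, Rhox5, without the filter and 1 with the replicate block (1.39, adjusted p 0.00117). The block gave 9 calls for the TKO in DMSO and 12 in TSA. Same-numbered libraries correlated positively in their deviations, with r of 0.0586 to 0.366 across genes. The summed Rhox level was also higher in replicate 2 in every group. Neither shows that the numbers pair libraries. TSA in wild type gave Rhox5 0.17 with total counts, 0.10 with upper quartile factors and -0.46 to 0.38 without 1 library, and gave Rhox2c -2.44 to 4.03. Without 1 library, TSA in TKO gave Rhox1 -0.13 to 0.19 (-0.0069 without the filter) and the TKO in DMSO gave Rhox9 -0.43 to 0.67. Interaction values without 1 library were -2.52 to 3.95 for Rhox2c, -0.67 to 0.55 for Rhox6, -0.14 to 0.96 for Rhox9 and -0.31 to 0.42 for Rhox13. With total counts they were -0.016 for Rhox6 and -0.039 for Rhox13, with upper quartile factors -0.029 and -0.058, and for Rhox13 without the filter -0.0091. The causes were not tested. The alternatives for Gm9, Dnmt3b, Gata4, Etv5 and Ets1 were chosen after seeing the data. Depth limits the Rhox2 copies in wild type, where 3 counts set the floor.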
